A study of Homo sapiens with 6 samples.

Results

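The genes described here are 33 hosts of small nucleolar RNAs (snoRNAs) and well-known long noncoding RNA genes, taken from a list of names and found by symbol among the 50868 gene identifiers with a value. They comprise 23 snoRNA host genes (18 named SNHG, with GAS5, ZFAS1, EPB41L4A-AS1, DANCR and TAF1D) and 10 other long noncoding RNA genes (MALAT1, NEAT1, TUG1, NORAD, MEG3, H19, MIR22HG, CYTOR, PVT1 and OIP5-AS1). RNA was sequenced from 3 samples given an siRNA against SF3B4 and from 3 given a scramble siRNA, called control siRNA here. All 6 are labelled A549, a human lung adenocarcinoma line, grown in RPMI medium with serum. The genotype label reads SF3B4 knockdown for SF3B4 siRNA replicate 1, SF3B5 knockdown for replicate 2, SF3B6 knockdown for replicate 3 and WT for the controls, while the titles and treatment labels name SF3B4 siRNA in replicates 1 to 3. The titles were followed. Column names in the tables read H1650, a different lung cancer line, so the samples are called libraries labelled A549. Neither dose, nor time after transfection, nor the number of different siRNAs is stated in the sources used here. The replicates are called biological, with no word on separate cultures or days, so each p-value rests on the spread among these samples, which may be technical.

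SF3B4 belongs to SF3b, a protein complex of the U2 spliceosomal particle that engages the branch point when an intron is spliced. Most human snoRNAs lie in introns of host genes and are trimmed from the intron after it has been spliced out, so a host transcript gives both a spliced RNA and 1 or more snoRNAs. Box C/D snoRNAs guide ribose methylation and box H/ACA snoRNAs guide pseudouridylation of ribosomal and spliceosomal RNAs, and a few of them act in cutting the ribosomal RNA precursor. Many host genes make a spliced RNA with no long reading frame that is removed by nonsense-mediated decay, and many begin transcription at a pyrimidine-rich start of the kind found in ribosomal protein genes. The values here are FPKM of the host genes (fragments scaled to transcript length and library depth), not levels of the snoRNAs. Many hosted snoRNAs overlap annotated exons of their host, so reads of unspliced host RNA or of the snoRNA may enter a host value. SNORA78 shares 17.7% of the 31-base stretches of SNHG9, and SNORA24 shares 10.0% of those of SNHG8. The part of such reads in the host values was not tested.

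The implied depth was 17508446 to 18529933 fragments per library, and 9327 to 9678 genes per library reached 1 FPKM. SF3B4 itself had 22.0, 17.7 and 22.3 FPKM after SF3B4 siRNA and 88.6, 92.0 and 93.8 FPKM after control siRNA, so it was low in each library labelled SF3B4 siRNA. SF3B5 was also lower in each, at 200.8, 189.3 and 206.9 FPKM after SF3B4 siRNA and 393.0, 431.6 and 453.3 FPKM after control siRNA (limma adjusted p = 9.56e-05), and SF3B6 was not called (limma adjusted p = 0.182). Of 10 genes typical of A549, 4 reached 1 FPKM in at least 3 libraries, their summed level was 243 to 264 FPKM in SF3B4 siRNA libraries and 244.8 to 255.6 FPKM in control libraries, and AKR1C1, AKR1C2, ALDH1A1, ALDH3A1 and GPX2 were near 0. CDKN2A and CDKN2B, listed as deleted in A549, summed to 0 FPKM in SF3B4 siRNA libraries and to 0 to 0.00629 FPKM in control libraries. Whether these genes tell A549 from H1650 was not tested. All 7 epithelial markers were present (1504 to 1567 FPKM summed in SF3B4 siRNA libraries, 1357 to 1555 FPKM in control libraries). Of 6 fibroblast markers only COL1A1 reached that level (2.88 to 3.23 FPKM summed over the list in SF3B4 siRNA libraries, 2.14 to 2.24 FPKM in control libraries), and of 6 leukocyte and blood markers CD14 and CD68 did (31.6 to 34.8 FPKM summed in SF3B4 siRNA libraries, 24.8 to 33.0 FPKM in control libraries), with PTPRC at 0 in all libraries. COL1A1 was higher at 2.27 ± 0.0568 FPKM after SF3B4 siRNA and 1.33 ± 0.103 FPKM after control siRNA, and CD14 at 5.62 ± 0.945 FPKM after SF3B4 siRNA and 2.59 ± 0.239 FPKM after control siRNA (SD, n = 3 each, limma adjusted p = 0.00226 and 0.00126), while CD68 was not called. Of the epithelial markers CDH1, MUC1 and EPCAM were higher, and AKR1B10 and TXNRD1 were among the A549 markers that were higher. The part of these markers in the results was not tested. In bulk RNA, fewer cells that express a gene and less RNA per cell cannot be told apart.

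Of the 33 genes, 23 reached 1 FPKM in at least 3 of the 6 libraries and were tested with limma on log2(FPKM + 0.1); p-values were adjusted after Benjamini and Hochberg over all 9685 tested genes, with a threshold of 0.05. Fold changes are on that scale, which understates changes of low genes. After SF3B4 siRNA, 9 of the 23 were lower, the hosts SNHG3, SNHG9, SNHG15, SNHG17, DANCR, SNHG19 and ZFAS1 and the noncoding genes TUG1 and CYTOR, and 2 were higher, the host SNHG32 and the noncoding gene NORAD. Among all tested genes 18.1% were lower, 16% higher and 34.1% changed in either direction, beside 39.1%, 8.70% and 47.8% of these 23. The 2 groups of libraries did not overlap for 13 of the 23 genes, 10 lying below and 3 above the controls, where 49.5% of all tested genes did not overlap (25.7% below, 23.8% above). The median log2 fold change was -0.31 over the 17 tested hosts and -0.02 over the 6 other noncoding genes, against 0.00 over all tested genes. Without control replicate 1 the median of the hosts was -0.20. The count of lower genes was 5 without SF3B4 siRNA replicate 1, and the count of higher genes was 1 without control replicate 2 or 3 or SF3B4 siRNA replicate 2 or 3. No gene passed the filter through the libraries of 1 group alone, and the 10 genes below the filter are described by their values, with a test only in the alternative without the filter.

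**Figure D1:**
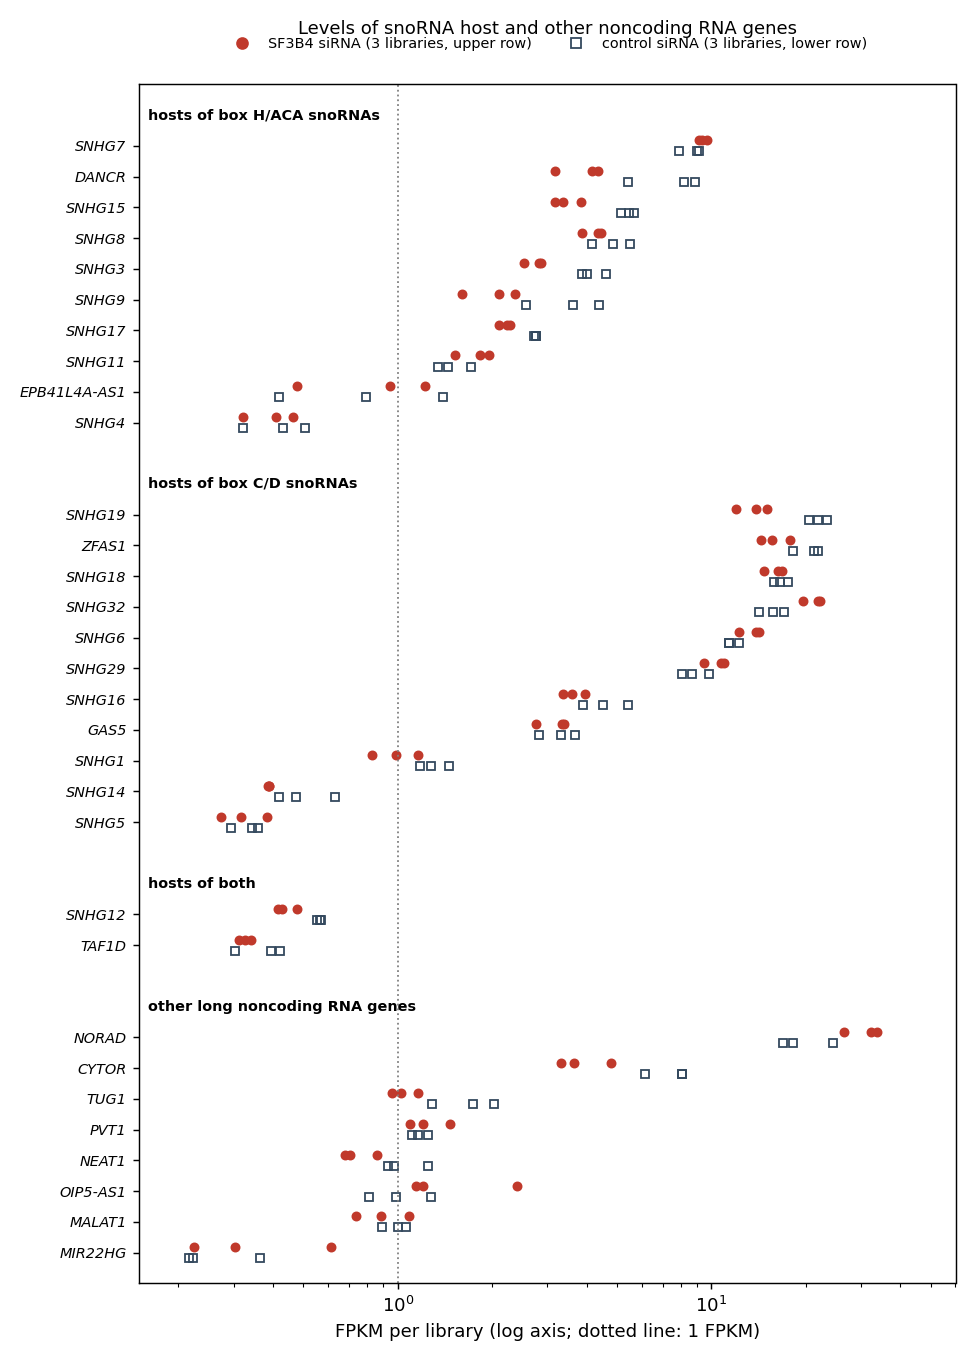
FPKM in each library on a log axis, with SF3B4 siRNA libraries as filled circles above and control libraries as open squares below for each gene; the dotted line marks 1 FPKM, and MEG3 and H19, at or near 0, are left out. NORAD reached 26.5 to 33.7 FPKM in SF3B4 siRNA libraries, above the controls, while SNHG19, SNHG15, DANCR and CYTOR lay below theirs, and SNHG5, SNHG12 and TAF1D lay under 1 FPKM in all libraries.

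The starts of the host genes are shown first because hosts that moved in opposite directions began with the same kind of run. RefSeq start sites (GRCh38.p14) were found for 20 of the 23 hosts, and windows of 30 bases, 15 before and 15 after the start, were searched on the transcribed strand for a C followed by at least 4 pyrimidines (C or T), the core of the start found in ribosomal protein genes. The 6 called hosts with an entry are printed 5′ to 3′ with the longest such run in capitals, first SNHG32, which was higher, then the lower ones; the transcript starts at base 16 of each line.
SNHG32 (chr6:31834901-31834930, plus strand): ctcgccattttagttCTTTTTgcgaagtgg
SNHG19 (chr16:2155344-2155373, minus strand): ctcgcccgcccctgtCTTTTCggggtcgag
ZFAS1 (chr20:49278627-49278656, plus strand): aggaagccattcgttCTTTCgcgtctgcgg
SNHG17 (chr20:38435314-38435343, minus strand): ttgtcgtgtggcctcagtCCTTCgccgtcc
DANCR (chr4:52712379-52712408, plus strand): tcggctgcgcgccccgCCCTTgcccagagt
SNHG3 (chr1:28505928-28505957, plus strand): cctcagtgagtttctgattctctaactgcg
SNHG32, SNHG19 and ZFAS1 all began with C and a run of T at the annotated start, and SNHG3 held no run. A run was present in 16 of the 20 host windows (80%), in 2 of 8 windows of the other noncoding genes (25.0%), in 13 of 13 windows of ribosomal protein genes that host snoRNAs and in 39.0% of all 35116 windows of the table. Of the 18 listed ribosomal protein genes that host snoRNAs, 13 had a window. The run began exactly at the annotated start in 5 of 20 hosts, in 2 of these 13 ribosomal protein genes and in 1.09% of all windows. Among the hosts, it was held by 4 of 5 lower, 1 of 1 higher and 6 of 8 tested genes that were not called. Some RefSeq windows lie outside the GENCODE 29 gene and may not be the start of the measured gene. The window of SNHG14, which held a run, starts at chr15:24823593, and its GENCODE 29 gene starts at 24978583. The windows of GAS5 and SNHG3, without a run, also lay before the GENCODE 29 start of the gene. These shares describe letters in a window and show nothing about any factor.

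Among the 10 hosts of box H/ACA snoRNAs, 8 were tested, with a median log2 fold change of -0.45. In limma 5 were lower and 0 higher (62.5% and 0%), where 18.1% of all tested genes were lower and 16% higher. The counts were the same at an unadjusted p under 0.05, where 23.5% of all tested genes were lower and 21.4% higher. The split by snoRNA class follows the annotated SNORA and SNORD names and was made after the values were seen. DANCR, the host of SNORA26 and a gene named for holding back differentiation, had 4.34, 3.18 and 4.16 FPKM after SF3B4 siRNA and 5.44, 8.18 and 8.86 FPKM after control siRNA. All SF3B4 siRNA libraries lay below all controls, although control replicate 1 was closer to them than to the other controls. The log2 fold change was -0.91 ± 0.20 (SE, limma adjusted p = 0.0127). SNHG15, the host of SNORA9, had 3.36, 3.18 and 3.84 FPKM after SF3B4 siRNA and 5.45, 5.15 and 5.66 FPKM after control siRNA. Its groups were separated by a wider gap than the range of either (log2 fold change -0.64 ± 0.10, SE, limma adjusted p = 0.00305), and its call held under all 13 alternatives run.

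SNHG3 is the host of SNORA73A and SNORA73B, copies of the U17 snoRNA that acts in processing of the small subunit ribosomal RNA. It had 2.54, 2.86 and 2.83 FPKM after SF3B4 siRNA and 4.63, 3.86 and 4.02 FPKM after control siRNA, without overlap. The log2 fold change was -0.59 ± 0.11 (SE, limma adjusted p = 0.00531). SNHG9, the host of SNORA78, had 1.61, 2.37 and 2.10 FPKM after SF3B4 siRNA and 2.57, 4.38 and 3.62 FPKM after control siRNA. The controls of SNHG9 spread more than the gap between the groups, and the log2 fold change was -0.75 ± 0.22 (SE, limma adjusted p = 0.0314). As a short gene it held only 13.8 to 23.6 fragments per library, depending on the transcript assumed, which alone gives a coefficient of variation of 20.6% to 27.0%. Its call was lost without control replicate 2 or 3 or SF3B4 siRNA replicate 1 or 3 (limma adjusted p 0.0668 to 0.0882), without the filter (0.0948) and with quantile normalization (0.0503).

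SNHG17, the host of the SNORA71 family, had 2.10, 2.23 and 2.29 FPKM after SF3B4 siRNA and 2.73, 2.77 and 2.76 FPKM after control siRNA. The controls lay close together, and the difference was small (log2 fold change -0.31 ± 0.09, SE, limma adjusted p = 0.0381). That call was lost without any 1 of the 6 libraries (limma adjusted p 0.0521 to 0.123), without the filter (0.0606) and with quantile normalization (0.0635). SNHG7, the host of SNORA17A and SNORA17B, averaged 9.38 ± 0.297 FPKM after SF3B4 siRNA and 8.66 ± 0.680 FPKM after control siRNA (SD, n = 3 each). SNHG8, the host of SNORA24, averaged 4.23 ± 0.304 FPKM after SF3B4 siRNA and 4.84 ± 0.666 FPKM after control siRNA. SNHG11, the host of SNORA60, averaged 1.77 ± 0.227 FPKM after SF3B4 siRNA and 1.50 ± 0.188 FPKM after control siRNA. The groups of these 3 genes overlapped and none passed the test (limma adjusted p 0.275 to 0.337). EPB41L4A-AS1 and SNHG4 stayed below the filter with overlapping groups.

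Among the 11 hosts of box C/D snoRNAs, 9 were tested, 2 were lower and 1 higher in limma, with a median log2 fold change of -0.06. These shares were 22.2% lower and 11.1% higher, beside 18.1% and 16% of all tested genes. SNHG19, the host of SNORD60 and a single annotated transcript of 342 bases, had 13.9, 11.9 and 15 FPKM after SF3B4 siRNA and 20.5, 23.4 and 21.9 FPKM after control siRNA. The groups lay far apart relative to their spread (log2 fold change -0.69 ± 0.10, SE, limma adjusted p = 0.0020), and the call held under all 13 alternatives. ZFAS1, the host of the SNORD12 family, named for its place beside the zinc finger gene ZNFX1, had 14.4, 17.8 and 15.6 FPKM after SF3B4 siRNA and 21.8, 21.3 and 18.2 FPKM after control siRNA. The nearest libraries of the 2 groups differed by less than 1 FPKM, and the log2 fold change was -0.36 ± 0.11 (SE, limma adjusted p = 0.0328). The ZFAS1 call was lost without control replicate 1 or 2 or SF3B4 siRNA replicate 1 or 3 (limma adjusted p 0.0852 to 0.101), without the filter (0.0923) and without trend and robust option (0.0513).

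SNHG32, annotated in GENCODE 29 under its older name C6orf48 as protein-coding, hosts SNORD48 and SNORD52. It was the only host that was higher, with 22.2, 19.6 and 21.9 FPKM after SF3B4 siRNA and 17, 14.2 and 15.8 FPKM after control siRNA. The groups did not overlap, and the log2 fold change was 0.44 ± 0.09 (SE, limma adjusted p = 0.00880). SNHG6, the host of SNORD87, had 12.28, 13.92 and 14.18 FPKM after SF3B4 siRNA and 12.27, 11.40 and 11.36 FPKM after control siRNA. Its groups were separated by 1 pair of nearly equal libraries and the difference did not pass the test (log2 fold change 0.20 ± 0.08, SE, limma adjusted p = 0.101).

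SNHG1, the host of 7 annotated SNORD genes including SNORD22 and the SNORD25 to SNORD28 run, had 0.984, 0.828 and 1.17 FPKM after SF3B4 siRNA and 1.46, 1.18 and 1.28 FPKM after control siRNA. Its groups just failed to meet, and the difference did not pass the test (log2 fold change -0.37 ± 0.16, SE, limma adjusted p = 0.114). GAS5, named for its rise in growth-arrested mouse cells and known as a host of C/D snoRNAs, averaged 3.16 ± 0.354 FPKM after SF3B4 siRNA and 3.28 ± 0.429 FPKM after control siRNA (SD, n = 3 each), close together beside its spread. SNHG16, SNHG18 and SNHG29 had overlapping groups, with log2 fold changes of -0.32, -0.06 and 0.23 (limma adjusted p 0.102, 0.570 and 0.123). SNHG18 and SNHG29 were among the better expressed hosts, at 16.0 ± 1.06 and 10.4 ± 0.812 FPKM after SF3B4 siRNA and 16.7 ± 0.880 and 8.87 ± 0.901 FPKM after control siRNA.

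The remaining hosts were low. SNHG14, the long transcript over the imprinted SNORD115 and SNORD116 clusters with 84 annotated snoRNA genes, stood at 0.390, 0.389 and 0.387 FPKM after SF3B4 siRNA and 0.633, 0.419 and 0.474 FPKM after control siRNA. SNHG12, which hosts snoRNAs of both classes, stood at 0.417, 0.427 and 0.476 FPKM after SF3B4 siRNA and 0.555, 0.570 and 0.564 FPKM after control siRNA. In both genes the SF3B4 siRNA libraries lay below the controls. SNHG5, SNHG4 and TAF1D, which encodes a subunit of the selectivity factor of RNA polymerase I, averaged 0.324, 0.398 and 0.326 FPKM after SF3B4 siRNA and 0.332, 0.420 and 0.373 FPKM after control siRNA, with overlap. EPB41L4A-AS1 ranged from 0.479 to 1.22 FPKM after SF3B4 siRNA and from 0.418 to 1.39 FPKM after control siRNA, so its libraries differed more within a group than between groups. Summed over all 23 hosts, levels were 128.1, 127.9 and 136.3 FPKM after SF3B4 siRNA and 148.1, 145.9 and 143.6 FPKM after control siRNA, without overlap. This sum is weighted to the hosts with high levels and does not describe each host. SNHG19 averaged 13.6 FPKM after SF3B4 siRNA and 21.9 FPKM after control siRNA, and ZFAS1 15.9 and 20.4 FPKM. SNHG32 went the other way, with 21.2 FPKM after SF3B4 siRNA and 15.7 FPKM after control siRNA.

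**Figure D2:**
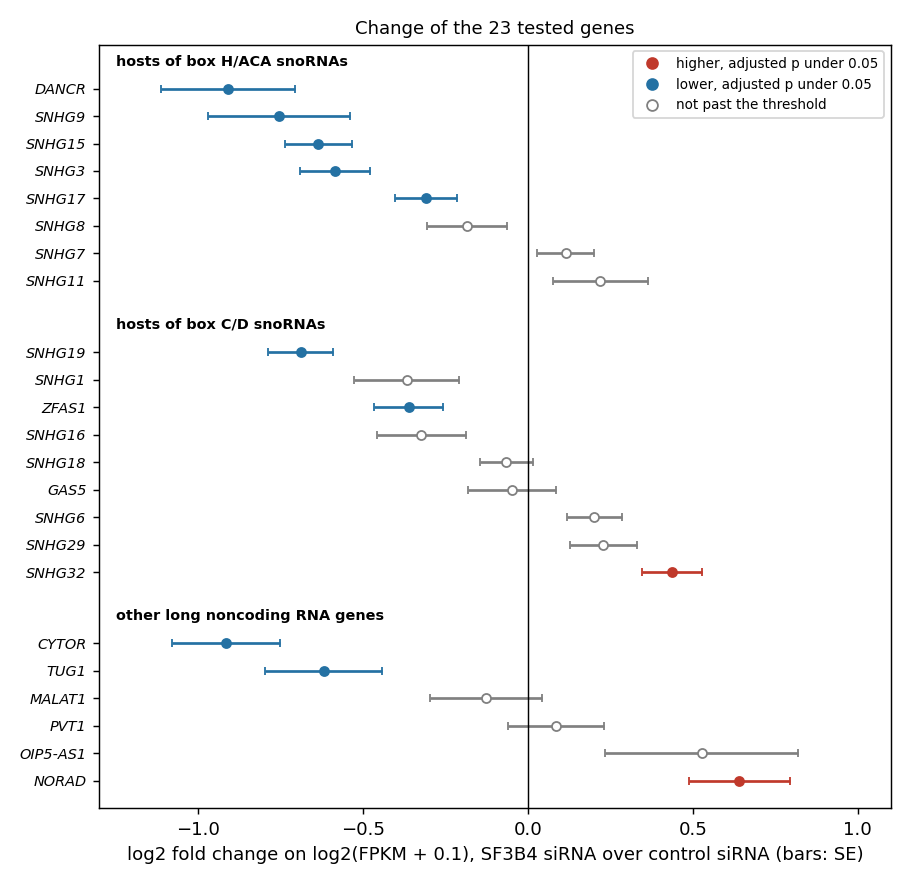
Log2 fold change of each tested gene on log2(FPKM + 0.1), SF3B4 siRNA over control siRNA, with bars of 1 standard error and filled points for genes past the threshold. Lower calls run from CYTOR at -0.92 and DANCR at -0.91 to SNHG17 at -0.31, and SNHG32 at 0.44 and NORAD at 0.64 are the higher calls; OIP5-AS1 at 0.53 has the widest bar.

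Of the 10 other noncoding genes, 6 were tested, 2 were lower and 1 higher (33.3% and 16.7%), beside 18.1% and 16% of all tested genes. NORAD, an abundant cytoplasmic RNA that binds Pumilio proteins, had 26.5, 33.7 and 32.3 FPKM after SF3B4 siRNA and 24.5, 18.2 and 17 FPKM after control siRNA. It had the highest mean of the 33 genes after SF3B4 siRNA, while SNHG19 and ZFAS1 had higher means after control siRNA. The nearest libraries were the replicates numbered 1. The log2 fold change was 0.64 ± 0.15 (SE, limma adjusted p = 0.0168). With about 2442 fragments per library, counting error alone gives a coefficient of variation of 2.02%. The call was lost without control replicate 2 or 3 or SF3B4 siRNA replicate 2 or 3 (limma adjusted p 0.0505 to 0.0563) and without the filter (0.0569).

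CYTOR, a noncoding RNA named for its tie to the cytoskeleton, had 4.77, 3.64 and 3.31 FPKM after SF3B4 siRNA and 6.15, 8.08 and 8.04 FPKM after control siRNA. The groups did not overlap, and its change was of about the size of that of DANCR (log2 fold change -0.92 ± 0.16, SE, limma adjusted p = 0.00476). TUG1, a noncoding RNA first described in mouse retina, had 0.956, 1.03 and 1.16 FPKM after SF3B4 siRNA and 2.03, 1.29 and 1.73 FPKM after control siRNA. Its controls ranged widely, with the lowest close to the SF3B4 siRNA libraries (log2 fold change -0.62 ± 0.18, SE, limma adjusted p = 0.0308). The TUG1 call was lost without control replicate 1 or 3 or SF3B4 siRNA replicate 1 or 2 (limma adjusted p 0.0775 to 0.0892) and without the filter (0.0837).

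MALAT1, a nuclear speckle RNA that is among the most abundant noncoding RNAs of many cells, was low here, with 0.734, 0.886 and 1.08 FPKM after SF3B4 siRNA and 1.06, 0.890 and 1.00 FPKM after control siRNA. The groups overlapped (log2 fold change -0.13 ± 0.17, SE, limma adjusted p = 0.603). NEAT1, the RNA scaffold of paraspeckles, had 0.707, 0.861 and 0.678 FPKM after SF3B4 siRNA and 1.25, 0.934 and 0.975 FPKM after control siRNA. Its groups did not overlap, but it fell short of the filter. The name of the gene set as abundant therefore does not describe MALAT1 and NEAT1 in these libraries, and the sources used here do not state how transcripts were selected for sequencing.

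OIP5-AS1, the human counterpart of zebrafish cyrano, had 2.40, 1.15 and 1.21 FPKM after SF3B4 siRNA and 1.28, 0.810 and 0.988 FPKM after control siRNA. SF3B4 siRNA replicate 1 stood apart from the other 5 libraries, and the difference did not pass the test (log2 fold change 0.53 ± 0.29, SE, limma adjusted p = 0.206). PVT1, the neighbour of MYC, averaged 1.26 ± 0.194 FPKM after SF3B4 siRNA and 1.17 ± 0.0712 FPKM after control siRNA (SD, n = 3 each), with overlap (limma adjusted p = 0.684). MIR22HG, the host of miR-22, ranged from 0.225 to 0.615 FPKM after SF3B4 siRNA and from 0.217 to 0.365 FPKM after control siRNA. Of the imprinted genes, H19 was listed at 0 in all 6 libraries and MEG3 at no more than 0.00581 FPKM. With no filter on low values, 0 of the 9 genes below it that had any signal passed the threshold in limma (adjusted p 0.148 to 0.955). NEAT1 was the 1 gene of these with an unadjusted p under 0.05 (0.0297).

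Several of these genes share exonic bases with a gene on the other strand or nearly the same letters with another gene, and the sources used here do not state the strand setting of the counting, so reads of such pairs may be split or mixed. RCC1, the exchange factor of the GTPase Ran, shares the strand and 5.92% of the exonic bases of SNHG3. It had 11.7, 8.90 and 9.16 FPKM after SF3B4 siRNA and 12.9, 18.8 and 18.96 FPKM after control siRNA, lower in the same direction as SNHG3 (log2 fold change -0.75 ± 0.18, SE, limma adjusted p = 0.0161). Without control replicate 2 or 3 or SF3B4 siRNA replicate 2 or 3 the RCC1 call was lost (limma adjusted p 0.0515 to 0.0562). MIR4435-2HG shares 18.7% of the 31-base stretches of CYTOR. It had 1.84, 2.05 and 1.89 FPKM after SF3B4 siRNA and 3.84, 3.89 and 3.58 FPKM after control siRNA (log2 fold change -0.93 ± 0.10, SE, limma adjusted p = 0.000540), so the values of CYTOR and MIR4435-2HG, both lower, are uncertain as values of 1 gene each.

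OIP5, a centromere assembly factor encoded on the other strand from OIP5-AS1, was lower while OIP5-AS1 was not called. OIP5 had 5.78, 4.64 and 6.93 FPKM after SF3B4 siRNA and 15.9, 13.9 and 12.3 FPKM after control siRNA (log2 fold change -1.27 ± 0.16, SE, limma adjusted p = 0.00115). The 2 genes share 3.71% of the exonic bases of OIP5-AS1. EPB41L4A lies opposite 49.6% of the exonic bases of EPB41L4A-AS1 and had 1.48, 1.57 and 1.66 FPKM after SF3B4 siRNA and 1.21, 1.14 and 1.04 FPKM after control siRNA. It was higher without overlap (log2 fold change 0.44 ± 0.12, SE, limma adjusted p = 0.0256), a call lost without control replicate 2 or 3 or any 1 SF3B4 siRNA replicate (limma adjusted p 0.0520 to 0.0870). ZNFX1, opposite 11.1% of ZFAS1, averaged 30.2 ± 11.5 FPKM after SF3B4 siRNA and 29.6 ± 0.397 FPKM after control siRNA (SD, n = 3 each). MCMDC2, opposite 29.3% of SNHG6, averaged under 1 FPKM in both groups. DIPK1B, opposite 25.2% of SNHG7, was not called, like SNHG7. NORAD shares 38.0% of its 31-base stretches with OVCH1-AS1, listed at 0, and 12.4% with HCG11, which averaged 0.565 FPKM after SF3B4 siRNA and 0.401 FPKM after control siRNA.

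**Figure D3:**
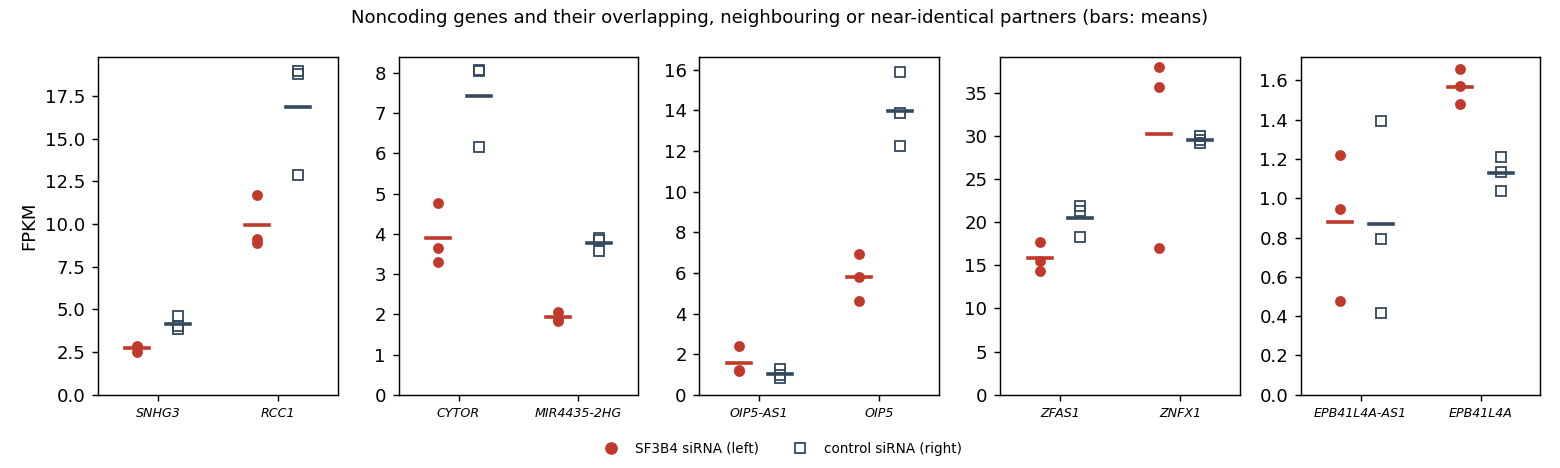
FPKM of 5 of the genes and of a partner that overlaps, neighbours or nearly matches each, with SF3B4 siRNA libraries as circles on the left and control libraries as squares on the right of each pair, and bars for means of 3. SNHG3 with RCC1 and CYTOR with MIR4435-2HG were lower together, while OIP5 was lower at 5.78 ± 1.15 FPKM after SF3B4 siRNA against 14 ± 1.81 FPKM after control siRNA (SD) and OIP5-AS1 was not called.

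Few of the hosted snoRNAs themselves had a value. SNORA73B, in an intron of SNHG3, had 0.280, 1.90 and 0.794 FPKM after SF3B4 siRNA and 2.69, 1.104 and 1.62 FPKM after control siRNA, with overlap (limma adjusted p = 0.260). SNORA71B, in an intron of SNHG17, averaged 1.45 ± 0.124 FPKM after SF3B4 siRNA and 1.59 ± 0.0946 FPKM after control siRNA (SD, n = 3 each), also not called (limma adjusted p = 0.459). SNORA73A, which overlaps an exon of SNHG3, averaged 0.269 FPKM in both groups, a value that equals 1 fragment in each library and gives no measured comparison. Reads from unspliced or retained host RNA cannot be told apart from reads of the snoRNA in these values.

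The lists of proteins that bind or assemble snoRNAs held 2 called genes. Among all tested genes 16% were higher and 18.1% lower, and 21.4% were higher at an unadjusted p under 0.05. Of 8 core proteins of snoRNA particles, 0 were higher in limma, also at an unadjusted p under 0.05, and 1 was lower (12.5%). This was NOP56, a box C/D core protein whose own introns host snoRNAs, with 4.74, 4.21 and 5.00 FPKM after SF3B4 siRNA and 6.31, 5.80 and 5.56 FPKM after control siRNA (log2 fold change -0.34 ± 0.10, SE, limma adjusted p = 0.0359). The NOP56 call was lost without any 1 control replicate and without SF3B4 siRNA replicate 1 or 2 (limma adjusted p 0.0573 to 0.114). Of 7 tested assembly factors, NOLC1, a nucleolar and Cajal body phosphoprotein that binds snoRNA particles, was higher, with 5.02, 4.76 and 5.55 FPKM after SF3B4 siRNA and 3.98, 3.35 and 3.42 FPKM after control siRNA (log2 fold change 0.50 ± 0.11, SE, limma adjusted p = 0.0102). The other 6 did not pass the test, so 14.3% of the tested assembly factors were higher and 0% lower.

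Other protein-coding genes host snoRNAs as well. Of 21 such genes outside the ribosomal proteins, all tested, 0 were higher in limma and 4 lower (0% and 19% of the list), with a median log2 fold change of -0.22; the lower share is close to the 18.1% of all tested genes. At an unadjusted p under 0.05, 1 was higher and 9 were lower, where 21.4% of all tested genes were higher and 23.5% lower. The 4 genes that were lower at the adjusted threshold were RCC1, NOP56, EEF1B2 and EIF4A2. EEF1B2, an exchange factor of translation elongation, had 27.4, 26.7 and 28.7 FPKM after SF3B4 siRNA and 41.5, 37.2 and 37.1 FPKM after control siRNA. EIF4A2, an RNA helicase of translation initiation, had 1.32, 1.44 and 1.38 FPKM after SF3B4 siRNA and 2.31, 1.85 and 1.90 FPKM after control siRNA. Neither pair of groups overlapped (log2 fold changes -0.48 ± 0.07 and -0.52 ± 0.12, SE, limma adjusted p = 0.00213 and 0.0164), and EIF4A2 lost its call without SF3B4 siRNA replicate 1 (limma adjusted p = 0.0528). Of 18 ribosomal protein genes that host snoRNAs, 2 were higher and 1 lower, with a median log2 fold change of 0.00. These shares, 11.1% and 5.56%, were below the 16% and 18.1% of all tested genes. RPL7A, a large subunit protein, was lower, at 139.0, 139.3 and 152.6 FPKM after SF3B4 siRNA and 199.8, 200.2 and 190.3 FPKM after control siRNA (log2 fold change -0.45 ± 0.06, SE, limma adjusted p = 0.00143). The small subunit proteins RPS12 (log2 fold change 0.29, limma adjusted p = 0.0305) and RPSA (0.21, 0.0195) were higher. RPS12 lost its call without control replicate 2 or 3 or SF3B4 siRNA replicate 2 or 3 (limma adjusted p 0.0841 to 0.0951), and RPSA without control replicate 2 or any 1 SF3B4 siRNA replicate (limma adjusted p 0.0542 to 0.0741).

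Of 11 tested nonsense-mediated decay factors, 1 was higher and 1 lower (9.09% each), where 16% of all tested genes were higher and 18.1% lower. SMG5, which takes part in the dephosphorylation and decay steps, was lower, with 26.1, 23.8 and 27.5 FPKM after SF3B4 siRNA and 36.5, 37.2 and 38.3 FPKM after control siRNA (log2 fold change -0.53 ± 0.07, SE, limma adjusted p = 0.00161). CASC3, a core protein of the exon junction complex, was higher, at 8.06 ± 1.06 FPKM after SF3B4 siRNA and 6.08 ± 0.586 FPKM after control siRNA (SD, n = 3 each, limma adjusted p = 0.0360), a call lost without control replicate 1 or 2 or SF3B4 siRNA replicate 1 or 3 (limma adjusted p 0.0678 to 0.108). Of 14 tested identifiers of paraspeckle proteins, the partners of NEAT1, 0 were higher in limma and 2 lower (14.3% of the list, where 18.1% of all tested genes were lower), with a median log2 fold change of -0.17. At an unadjusted p under 0.05, 0 were higher and 4 lower, beside the 21.4% and 23.5% of all tested genes. TARDBP, an RNA-binding protein, had 0.660, 0.774 and 0.676 FPKM after SF3B4 siRNA and 1.71, 1.42 and 1.56 FPKM after control siRNA (log2 fold change -1.05 ± 0.14, SE, limma adjusted p = 0.00135). It passed the filter through the control libraries alone, so its tested value had to differ. SFPQ, a paraspeckle core protein, was lower (log2 fold change -0.28, limma adjusted p = 0.0485), a call lost without any 1 of the 6 libraries (limma adjusted p 0.0552 to 0.139).

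**Figure D4:**
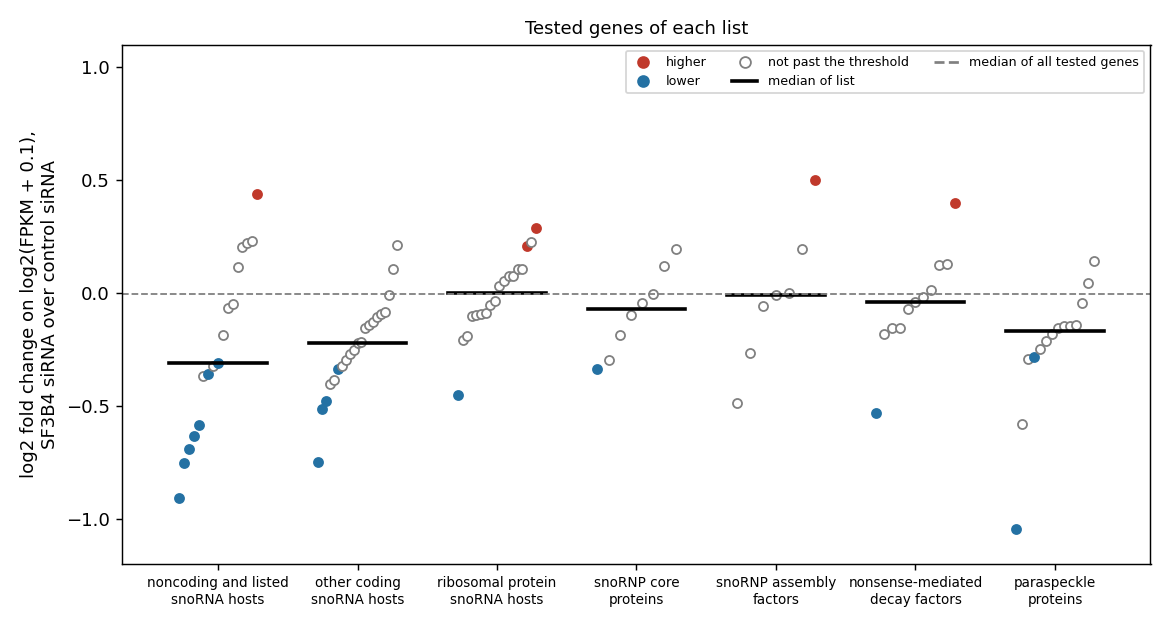
Log2 fold change of each tested gene by list, on log2(FPKM + 0.1), SF3B4 siRNA over control siRNA; thick bars are list medians and the dashed line is the median of all tested genes. The hosts have a median of -0.31 and the ribosomal protein hosts one of 0.00.

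The 7-base strings GCCTTCA and CCTTCAA, which overlap by 6 bases, had been picked earlier on these samples as frequent in genes with lower levels, so their counts here are a description. They were searched on the sense strand of all GENCODE 29 transcripts of a gene. Of the 9 lower genes 5 held one (SNHG15, SNHG17, ZFAS1, TUG1 and CYTOR), as did 0 of the 2 higher genes and 7 of the 12 tested genes that were not called. Over all tested genes 47.8% held one, with 65.7% of the lower and 38.4% of the higher genes. In the tested genes, 1 site of TUG1, which was lower, and 1 each of SNHG1 and SNHG18, which were not called, lay in most transcripts of the gene and are printed 5′ to 3′ with the string in capitals.
TUG1 (site at chr22:30973193-30973199, plus strand, GRCh38): cttcagttaaaGCCTTCAgagacacacaat
SNHG1 (site at chr11:62854028-62854034, minus strand, GRCh38): accattgaaaaGCCTTCAgagctgagaggt
SNHG18 (site at chr5:9549109-9549115, plus strand, GRCh38): gccatgagtgaCCTTCAAaggaaagccggg
The TUG1 site was in 19 of its 20 transcripts the SNHG1 site in 15 of its 25 and the SNHG18 site in both of its annotated transcripts. SNHG3, SNHG9, DANCR and SNHG19, all lower, held neither string.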

How the data were processed

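The deposited files hold an FPKM value for each gene in each of 6 RNA-seq libraries, per the file headers. Per the submitters' processing notes, HISAT2 2.0.4, StringTie 1.3.0 and GRCh38 were used; which did what is not stated there. Annotation, strand setting and transcript selection are not stated either. A count test was not run, since FPKM are no counts. In single-exon genes FPKM times length moved in steps of 54.0 to 57.1, and 99.1% to 99.5% of the low values were whole fragments to within 0.02, which gives the implied depth; fragment numbers and coefficients of variation made from it cover counting error only.

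Symbols were found for 49659 of 50868 identifiers, and 50111 were in GENCODE 29, which supplied positions, overlaps and transcripts; start windows came from RefSeq (GRCh38.p14). Genes with at least 1 FPKM in at least 3 libraries were tested with limma 3.58.1 in R 4.3.3 on log2(FPKM + 0.1) (empirical Bayes, intensity trend, robust option, two-sided), adjusted by Benjamini-Hochberg over 9685 genes. The script was tested on simulated data. All 33 genes are named, with up to 4 called genes of each further list, the largest changes first, the targeted gene, and overlapping or neighbouring partners. The genes and lists were chosen with earlier results of these data known. Alternatives were pseudocount 1, no filter, TPM, quantile normalization, neither trend nor robust option, the replicate number as a block, each library left out, and, chosen after seeing the data, SF3B4 siRNA replicates 2 and 3 both left out. The main fit did not pair samples by replicate number, and whether these numbers mark pairs is not known.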

Additional observations from a re-analysis of the deposited data

How the results depend on the processing

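No called gene among the 23 tested changed direction under the 13 alternatives; of those not called, GAS5, SNHG18 and PVT1 changed sign under some. With SF3B4 siRNA replicates 2 and 3 both left out, the lone SF3B4 siRNA library was assumed to vary like the controls: 335 genes were higher and 700 lower, 1 of the 23 was higher (OIP5-AS1, limma adjusted p = 0.0399) and 2 lower (SNHG15 and SNHG19), and the hosts' median log2 fold change was -0.235. The limma adjusted p of SNHG3, SNHG32, DANCR and CYTOR was then 0.0523, 0.0694, 0.154 and 0.0899, and these 4 calls held under the other 12 alternatives. Without the filter 1 of the genes was higher and 5 were lower, with 24450 genes in the adjustment; SNHG9, SNHG17, ZFAS1, TUG1 and NORAD lost their calls. Quantile normalization left 7 lower (without SNHG9 and SNHG17), and the fit without trend and robust option 8 (without ZFAS1). With pseudocount 1 the hosts' median was -0.210. Leaving out 1 library at a time gave 1 to 2 higher and 5 to 7 lower of the genes and a hosts' median of -0.307 to -0.203; over all genes it gave 1094 to 1492 higher and 1331 to 1604 lower. Rescaling to TPM gave 1641 higher and 1629 lower genes, and quantile normalization 1738 and 1636. Samples with the same replicate number had correlations of -0.118 to 0.024 between their deviations; with the replicate block 1290 genes were higher and 1537 lower, and of the 11 calls only that of SNHG17 was lost. Short or low genes rest on few fragments, 1.52 to 6.12 for SNHG5. The causes of these shifts were not tested.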
